A study of Arabidopsis thaliana with 24 samples.

Results

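The defensin-like genes of Arabidopsis thaliana were followed here across seedlings with lost, raised or altered DNE1 and across a mutant of the decapping factor VCS. They were taken as every row of the deposited expression table whose description contained the words "Defensin-like" or "defensin-like", which gave 73 genes among 27782 rows. Of these, 52 were described as defensin-like proteins, 17 as putative defensin-like proteins and 4 as defensin-like (DEFL) family proteins. Only 24 of the 73 reached 10 normalized counts in 3 or more of the 24 libraries, and each test was limited to members that reached this in the libraries of its fit.

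Defensin-like genes encode small secreted peptides that are folded by disulfide bridges between cysteines. The best known are the plant defensins (PDF), which inhibit fungal growth, and PDF1.2 is the classical marker of the joint jasmonate and ethylene response. Other members act between cells in reproduction, in pollen tube attraction and self-incompatibility for example, and many are known for expression in ovules, embryo sacs, seeds or roots and little elsewhere. Most have no assigned function.

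DNE1 is an endoribonuclease associated with the decapping machinery, and VCS (VARICOSE) is a scaffold protein of mRNA decapping, the step that exposes an mRNA to decay from its 5′ end. RNA was sequenced from whole seedlings of 14 days, all labelled with the background ecotype Col-0, in 8 groups of 3 libraries that the series text calls biological triplicates. The 2018 libraries, of batches 1 to 3, held wild type (WT), the insertion mutant dne1 (Salk132521, dne1-1 in the series text) and OE1 and OE2, which are the 35S GFP::DNE1 lines T3_2 and T3_5. The 2019 libraries held WT and vcs-6 of batches 4 to 6, and WT and the line T3_1 of 35S:GFP-DNE1_D153N of batches 7 to 9, called D153N here. Each transgenic group was 1 line, the 35S promoter drives expression throughout the plant, and the labels do not give the background of the transgenes. The 2018 and 2019 sets were scaled separately, so every test used the WT of its own batches. The vcs-6 columns of the table carry no number, so their libraries 1 to 3 are named in table order and are tied to no batch.

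Between 36714564 and 70561391 reads were assigned to genes per library in the 2018 set, and between 22611653 and 53908600 in the 2019 set. DNE1 transcript lay between 1294 and 1548 normalized counts in WT of batches 1 to 3 and between 263 and 362 in dne1. DNE1 lay between 12986 and 19289 in D153N and between 802 and 854 in its WT. The summed counts of DNE1 and VCS were 25352 to 28622 in OE1, 24281 to 27670 in OE2 and 7443 to 8259 in their WT. Of these 2 genes, 1 was higher in OE1 and in OE2 at a limma adjusted p under 0.05. In D153N 1 of them was higher and 1 lower by the same measure. VCS transcript was higher in the libraries labelled vcs-6 than in their WT, by 0.62 ± 0.12 on the log2 scale (± SE, 3 against 3 libraries, limma adjusted p = 0.0041), so its level did not check that label.

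Sequences of the members on which the results turn are shown first. They are the spliced coding sequences that RefSeq gives for the genome build TAIR10.1, with every in-frame cysteine codon (TGT or TGC) in capitals. All 73 members were found in that annotation by locus. Their coding sequences were 174 to 567 bases long with a median of 252, and held 4 to 17 cysteine codons with a median of 8. A total of 62 members had at least 8, and 72 of the 73 had 2 exons.

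The first set holds the members with the largest rises in vcs-6, AT3G59930 (chr3:22139772-22140127, minus strand), AT5G33355 (chr5:12599319-12599671, plus strand) and PDF1.4 (AT1G19610, chr1:6781674-6782024, minus strand). It is shown because the first pair lie on different chromosomes and have almost the same coding sequence.
AT3G59930: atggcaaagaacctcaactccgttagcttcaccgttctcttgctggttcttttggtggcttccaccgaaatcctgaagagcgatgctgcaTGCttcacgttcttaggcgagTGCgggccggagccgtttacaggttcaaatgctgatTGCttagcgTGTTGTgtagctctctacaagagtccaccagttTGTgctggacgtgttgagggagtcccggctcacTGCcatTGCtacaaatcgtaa
AT5G33355: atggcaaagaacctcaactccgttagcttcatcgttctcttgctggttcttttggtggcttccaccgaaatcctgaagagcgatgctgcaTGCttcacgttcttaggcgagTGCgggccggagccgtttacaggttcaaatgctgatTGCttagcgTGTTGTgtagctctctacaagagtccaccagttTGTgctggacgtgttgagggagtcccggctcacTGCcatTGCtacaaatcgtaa
PDF1.4: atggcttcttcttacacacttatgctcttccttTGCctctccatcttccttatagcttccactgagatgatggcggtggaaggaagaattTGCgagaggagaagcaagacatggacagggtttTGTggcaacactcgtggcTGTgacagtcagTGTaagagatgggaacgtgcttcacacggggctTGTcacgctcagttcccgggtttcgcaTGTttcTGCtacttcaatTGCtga

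The second set holds the members with the largest falls in vcs-6, the neighbours AT3G05727 (chr3:1693616-1693934, plus strand) and AT3G05730 (chr3:1696070-1696490, plus strand), whose gene ends lie 1015 bases apart.
AT3G05727: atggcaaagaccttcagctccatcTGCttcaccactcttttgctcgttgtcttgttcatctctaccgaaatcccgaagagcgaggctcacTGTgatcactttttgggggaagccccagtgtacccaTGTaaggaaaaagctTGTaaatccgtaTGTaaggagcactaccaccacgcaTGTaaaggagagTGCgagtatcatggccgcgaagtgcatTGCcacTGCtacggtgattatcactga
AT3G05730: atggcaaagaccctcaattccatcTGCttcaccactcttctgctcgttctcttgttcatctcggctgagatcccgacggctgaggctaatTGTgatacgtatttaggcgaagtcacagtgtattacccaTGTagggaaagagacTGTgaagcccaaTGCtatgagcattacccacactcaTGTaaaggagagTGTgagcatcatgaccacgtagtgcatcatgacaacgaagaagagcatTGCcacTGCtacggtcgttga

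The last set holds the neighbours PDF2.1 (AT2G02120, chr2:538319-538842, plus strand) and PDF2.3 (AT2G02130, chr2:540071-540407, plus strand), 774 bases apart, which were higher in both vcs-6 and D153N.
PDF2.1: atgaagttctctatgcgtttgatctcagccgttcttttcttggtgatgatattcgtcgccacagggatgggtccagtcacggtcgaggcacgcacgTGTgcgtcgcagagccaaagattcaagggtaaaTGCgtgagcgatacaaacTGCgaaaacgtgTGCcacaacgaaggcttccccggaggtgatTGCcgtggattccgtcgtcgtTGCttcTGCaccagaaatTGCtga
PDF2.3: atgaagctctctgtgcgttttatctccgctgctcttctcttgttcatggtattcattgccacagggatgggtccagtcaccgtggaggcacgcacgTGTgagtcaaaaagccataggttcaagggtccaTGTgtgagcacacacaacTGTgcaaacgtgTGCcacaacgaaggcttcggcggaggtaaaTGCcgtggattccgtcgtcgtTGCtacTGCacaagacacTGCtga

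The coding sequences of AT3G59930 and AT5G33355 were 99.6% identical and differed by 1 base, C32T, counted from 1 at the A of the start codon with the base of AT3G59930 first. AT3G05727 and AT3G05730 were 71.9% identical, and PDF2.1 and PDF2.3 were 84.7% identical. Of the words of 31 bases in their transcripts, 34.1% of those of AT3G59930 and 40.0% of those of AT5G33355 also occurred in other annotated transcripts, in each other and, for AT3G59930, in the member AT1G34047. Reads from those stretches cannot be assigned to 1 of the pair, so the split of their counts is uncertain. Among all members 27 had another member within 10 kb, and 9 shared more than 20% of their words with another gene.

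Defensin-like genes were rarely measured. Of the 73 genes, 24 (32.9%) passed the level of 10 in 3 libraries, against 80.0% of all rows. At a level of 1 the number was 56, and at a level of 50 it was 13. A read in all 24 libraries was seen for 21 members, and 29 members had at most 10 reads in all libraries together. The 49 members that did not pass held 1396 reads between them, 0.172% of the 813871 reads of the whole set. The 3 most read members, AT2G43550, PDF2.3 and AT3G05730 in that order of reads, made up 67.4%.

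The members with at least 1 read in a group numbered 50 in WT of batches 1 to 3, 50 in dne1, 49 in OE1 and 48 in OE2. They numbered 50 in WT of batches 4 to 6, 57 in vcs-6, 56 in WT of batches 7 to 9 and 54 in D153N. These counts were not adjusted for depth and were not tested. Of the 73 rows, 53 held values in both sets, 17 held none for the 2018 set and 3 held none for the 2019 set. The RefSeq annotation gives a product containing "defensin-like" for 108 genes, of which 42 had a row and 40 were members; the others were not analysed here.

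**Figure D1:**
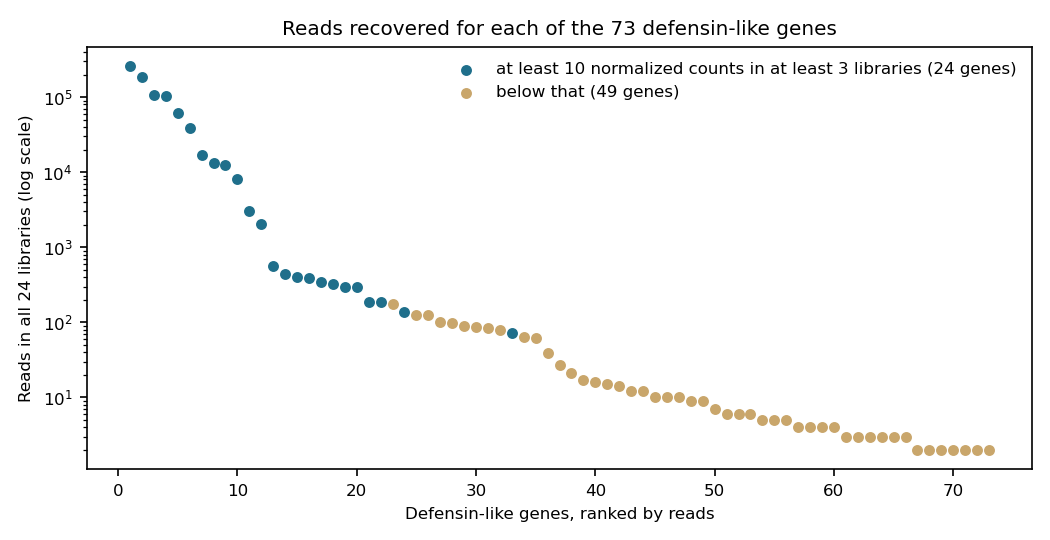
Reads recovered for each of the 73 defensin-like genes over all 24 libraries (vertical, log scale), ranked from most to least (horizontal). The 24 genes with at least 10 normalized counts in at least 3 libraries are blue and the 49 others tan; totals run from 258446 down to 2, with a median of 27.

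In WT seedlings a few members held nearly all of the signal. Levels of different genes are given as normalized count per kb of annotated transcript, mean ± SD over 9 WT libraries, and the SD includes the separate scaling of the 2018 and 2019 sets. AT2G43550 was highest at 32564 ± 10698, followed by PDF2.3 at 8752 ± 3298 and AT3G05727 at 6394 ± 4312. The annotated transcripts of AT2G43550 and AT2G43530 hold coding sequence only, so their levels are per kb of coding length and are set high by it. The next were PDF2.1 at 3927 ± 1741, AT3G05730 at 2946 ± 2688, AT2G43530 at 1901 ± 739 and AT1G60989 at 1884 ± 541. Apart from AT2G43550, each of these lay within the SD of its neighbour in the order. AT1G60989 is named SCRL7 for its likeness to the pollen self-incompatibility protein SCR. AT2G43535 followed, below these, at 738 ± 84.6, PDF2.5 (AT5G63660) at 147 ± 29.7 and PDF1.4 at 101 ± 122.

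The reads of all members together made up 0.0525% to 0.0899% of a library in WT of batches 1 to 3, and 0.0400% to 0.0576% in the 6 WT libraries of 2019. They made up 0.0818% to 0.0899% in vcs-6 and 0.0592% to 0.0882% in D153N, above all 6 of those WT libraries. As RNA came from whole seedlings, more or fewer cells of a type and more or less RNA per cell cannot be told apart.

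**Figure D2:**
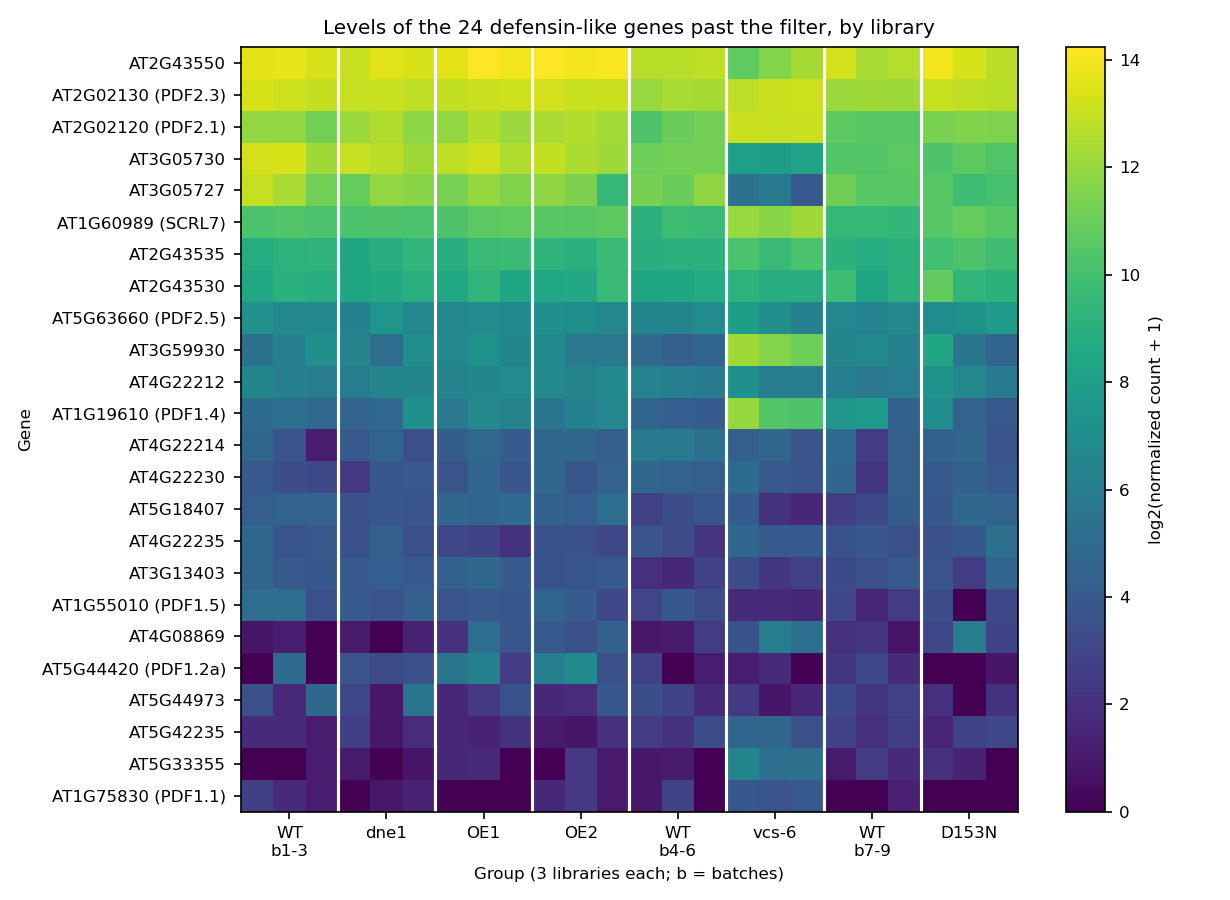
Level of each of the 24 defensin-like genes past the filter (rows) in each of the 24 libraries (columns, 3 per group, white lines between groups), as log2(normalized count + 1) in colour. The vcs-6 columns stand apart in AT3G59930, PDF1.4 and AT5G33355, where they are brightest, and in AT3G05727 and AT3G05730, where they are darkest.

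The libraries labelled vcs-6 were set against WT of batches 4 to 6 with limma on log2(normalized count + 1), two-sided, with p-values adjusted over all genes tested by Benjamini-Hochberg. A fold change on this scale understates the change of genes with few counts. Of 19 members tested, 11 were higher and 4 lower at an adjusted p under 0.05, against 51.5% of all 21351 genes called, 26.7% higher and 24.8% lower. The median log2 change was 0.97 over the 19 members and 0.00 over all genes tested. AT5G33355, AT4G08869, PDF1.1 and AT5G42235 passed the filter of that fit through the mutant libraries alone, so the count and the median describe the members and support nothing further. Each fold given below is the ratio of the group means of normalized counts.

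The largest rise was that of AT3G59930. Its normalized counts were 28.4, 19.4 and 23.5 in WT of batches 4 to 6 and 4803, 3154 and 2227 in vcs-6. All 3 mutant libraries lay far above all WT libraries, and the ratio of the means was 143. The log2 change was 7.04 ± 0.28 (SE, limma adjusted p = 8.2e-06).

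Its near copy AT5G33355 had counts of 0.98, 1.08 and 0 in WT and 83.6, 36.2 and 37.9 in vcs-6. Its counts were thus close to none in WT and present in every mutant library, at a small share of those of AT3G59930. The split of reads between the pair is uncertain, and how much of the rise is that of AT5G33355 itself was not tested. There were 2 reads in the 3 WT libraries and 160 in the 3 mutant libraries, a depth-adjusted ratio of 70.5 (95% exact interval 19.2 to 587, which covers counting error only). As it passed the filter through the mutant libraries alone, no test under that filter is given. Without a filter the log2 change was 4.95 ± 0.48 (limma adjusted p = 0.00013).

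PDF1.4, a plant defensin of the same group as the antifungal PDF1.1 and PDF1.2, had counts of 24.4, 18.3 and 16.5 in WT. In vcs-6 it had 4127, 1351 and 1227, so that library 1 was well above the others and all were above WT. Here the ratio of the means was 113, or 65.3 without library 1, and the log2 change was 6.54 ± 0.44 (limma adjusted p = 3.9e-05). PDF1.1 (AT1G75830) stayed low, with 0.98, 6.47 and 0 in WT and 14.3, 11.3 and 15.6 in vcs-6. It too passed the filter through the mutant libraries alone. Its log2 change of 2.57 ± 0.74 had a limma adjusted p of 0.021, but the call was lost without WT library 4 or without any 1 of the mutant libraries, where the adjusted p lay between 0.053 and 0.064.

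Of the PDF2 plant defensins, PDF2.1 rose from 1245, 1998 and 2478 in WT to 8872, 8421 and 8883 in vcs-6. The mutant libraries differed little among themselves and all lay above the WT range. The log2 change was 2.25 ± 0.23 (limma adjusted p = 0.00018), a ratio of 4.58. PDF2.3 rose less, from 4200, 5347 and 5040 to 7345, 8673 and 9157, with no overlap and a log2 change of 0.79 ± 0.14 (limma adjusted p = 0.0021). PDF2.5 did not pass, with 84.1, 87.4 and 114 in WT against 239, 128 and 76.8, and the groups overlapped (log2 change 0.49 ± 0.38).

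SCRL7 had counts of 573, 903 and 793 in WT and 4198, 3305 and 4674 in vcs-6. The groups were well apart, with a ratio of 5.37 and a log2 change of 2.43 ± 0.20 (limma adjusted p = 7.6e-05). SCRL7 lies on the strand opposite to AT1G60990 and shares 36.7% of its words with it, and as the strand setting of the counting is not given in the sources used here, reads of the pair may be mixed. AT1G60990 itself differed by -0.36 ± 0.14 (limma adjusted p = 0.062).

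AT4G08869 had counts of 0.98, 1.08 and 4.70 in WT and 11, 64.4 and 36.0 in vcs-6, a log2 change of 3.42 ± 0.72 (limma adjusted p = 0.0054). The groups did not overlap, the mutant libraries ranged widely, and the gene passed the filter through them alone (limma adjusted p = 0.0047 without a filter). It overlaps AT4G05625 on the opposite strand, with which it shares 57.6% of its words, so its counts are also uncertain.

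AT2G43535 rose from 501, 555 and 536 to 1187, 778 and 1203, with no overlap (log2 change 0.97 ± 0.18, limma adjusted p = 0.0031, ratio 1.99). The remaining members called higher were small or weakly supported. AT2G43530 changed by 0.44 ± 0.16 (limma adjusted p = 0.044) and lost the call in 6 of 14 alternatives. AT5G42235, named after its values were seen, changed by 1.63 ± 0.50 (limma adjusted p = 0.028) and lost it without WT library 4 or 5 or mutant library 1 or 2. It also passed the filter through the mutant libraries alone.

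The falls were fewer and included 3 of the 5 members most abundant per kb in WT. AT3G05727 had counts of 2560, 2080 and 3721 in WT and 38.5, 55.5 and 15.6 in vcs-6. Every mutant library was far below every WT library, 76.3-fold by the ratio of the means, and the log2 change was -6.34 ± 0.43 (limma adjusted p = 4.1e-05). Its neighbour AT3G05730 went from 2185, 2432 and 2475 to 271, 239 and 313, 8.62-fold lower with narrow groups (log2 change -3.11 ± 0.13, limma adjusted p = 9.1e-06). It shares 13.2% of its words with AT3G01735 on the opposite strand, which was not analysed here.

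AT2G43550, the most abundant member, had 6581, 6677 and 7635 in WT and 1716, 3079 and 5060 in vcs-6. The groups did not overlap, but the mutant libraries spread widely. Its log2 change was -1.22 ± 0.34 (limma adjusted p = 0.019), and without WT library 6 or mutant library 2 the adjusted p was 0.056 or 0.054. AT4G22214 had 54.7, 60.4 and 38.8 in WT and 18.7, 24.95 and 12.6 in vcs-6 (log2 change -1.43 ± 0.33, limma adjusted p = 0.0082).

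Of the members below the filter, AT4G11393 was the one with the most reads, 174, of which 160 came from vcs-6. Its counts there were 151, 9.66 and 10.7, and it had 0 reads in WT of batches 4 to 6. Taking 3 reads over the WT group as the floor, it was at least 47.0-fold higher. Library 1 held most of that signal, and without it the bound was 9.46-fold.

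**Figure D3:**
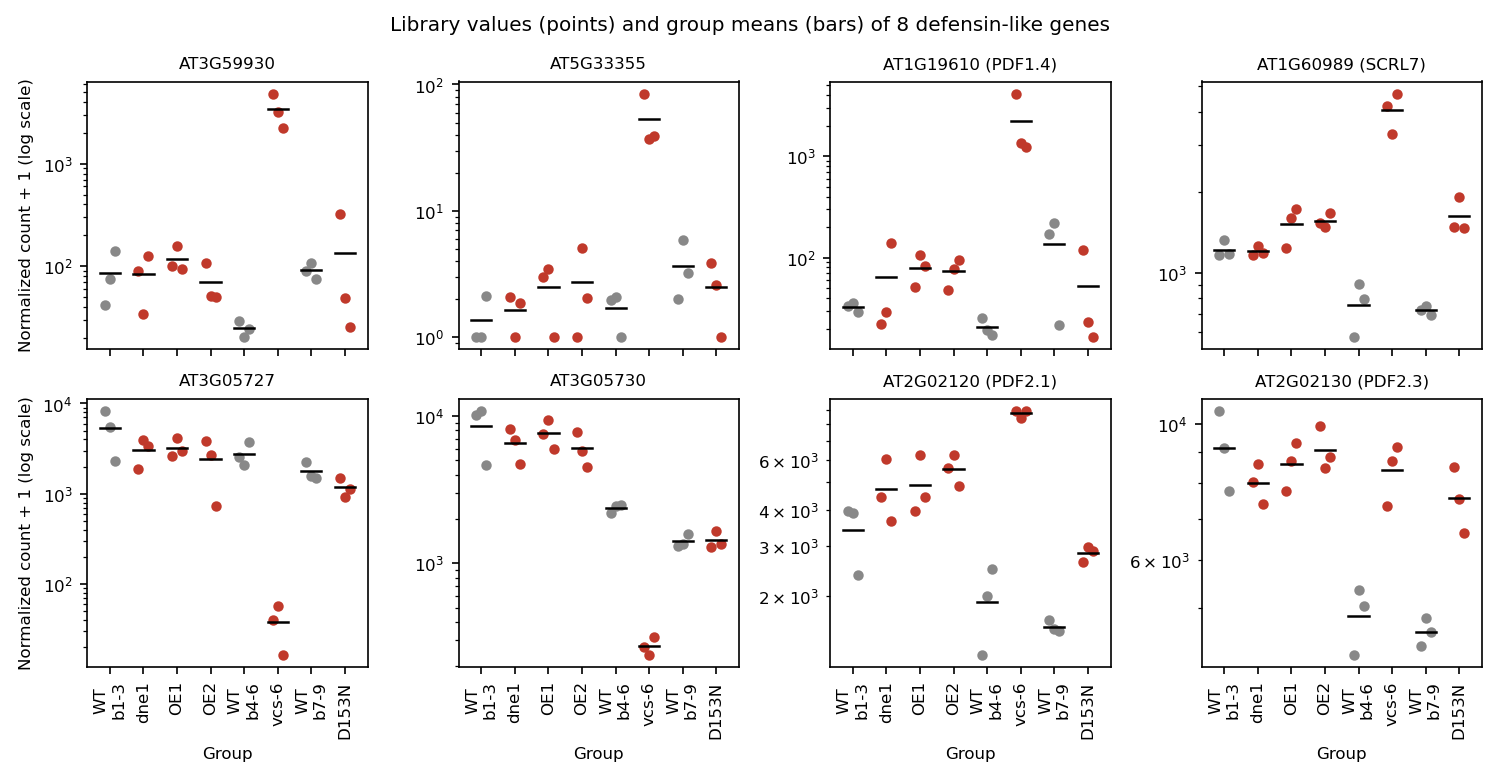
Normalized count + 1 (vertical, log scale, a separate range for each panel) of 8 defensin-like genes by group (horizontal; b stands for batches). Points are single libraries, grey for WT and red for the other groups, and bars are group means. The vcs-6 points stand above all others for AT3G59930, AT5G33355, PDF1.4, SCRL7 and PDF2.1, and below all others for AT3G05727 and AT3G05730.

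Seedlings with D153N, the line that overexpresses DNE1 altered at the residue in its name, were set against WT of batches 7 to 9 in the same way. Of 17 members tested, 4 were higher and none was lower, where 15.9% of all genes tested were called, 9.09% higher and 6.84% lower. A total of 6 members had an unadjusted p under 0.05, as did 7141 of all 21124 genes tested. The median log2 change was 0.59 over the 17 members and 0.00 over all genes.

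All 4 were among the members that were also higher in vcs-6, where 26.7% of all genes tested were higher. The overlap of both comparisons over all genes was not counted, so this describes the members only. SCRL7 had 721, 750 and 695 in WT and 1482, 1910 and 1473 in D153N, well apart, with a log2 change of 1.16 ± 0.12 (limma adjusted p = 0.0036). PDF2.1 had 1643, 1528 and 1503 in WT and 2625, 2968 and 2865 in D153N, again with narrow and separate groups (log2 change 0.85 ± 0.09, limma adjusted p = 0.0032). AT2G43535 had 578, 445 and 573 in WT and 968, 1238 and 936 in D153N (log2 change 0.97 ± 0.15, limma adjusted p = 0.012).

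PDF2.3 had 4331, 4825 and 4566 in WT and 8492, 7544 and 6630 in D153N, with no overlap. Its log2 change was 0.72 ± 0.11 (limma adjusted p = 0.011), and the adjusted p was 0.052 without WT library 9. In each batch these 4 genes were higher in D153N, by 1.04 to 1.35 for SCRL7, 0.68 to 0.96 for PDF2.1, 0.71 to 1.47 for AT2G43535 and 0.54 to 0.97 for PDF2.3 on the log2 scale.

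The members that moved most in vcs-6 did not pass in D153N. AT3G05730 differed by 0.01 ± 0.13 from WT, with 1281, 1655 and 1350 in D153N and 1308, 1356 and 1584 in WT. AT3G05727 had 1510, 917 and 1115 in D153N and 2252, 1560 and 1493 in WT, which overlapped slightly. Its log2 change of -0.59 ± 0.22 did not pass (limma adjusted p = 0.12), and with the batch as a replicate block it did (SE 0.11, adjusted p = 0.035).

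AT3G59930 had 325, 47.9 and 24.5 in D153N and 89.8, 107 and 74.3 in WT, so that 1 D153N library lay above the WT range and the others below it. Its log2 change of -0.29 ± 0.85 did not pass (limma adjusted p = 0.84) and had no stable direction, since edgeR and DESeq2 each gave 0.56 and the ratio of the means was 1.47. By batch it was 1.84, -1.14 and -1.56. PDF1.4 had 119, 22.3 and 15.5 in D153N and 170, 218 and 20.8 in WT. Both groups of that gene spread widely and overlapped (log2 change -1.38 ± 1.05, limma adjusted p = 0.40). PDF2.5 had 119, 153.2 and 237 in D153N and 99.9, 79.0 and 102 in WT, without overlap, and its log2 change of 0.80 ± 0.26 did not pass (limma adjusted p = 0.083; DESeq2 adjusted p = 0.027).

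D153N library 13 decided part of the count. Without it, 7 members were called, 5 higher and 2 lower, which added PDF2.5 (1.03, limma adjusted p = 0.033), AT3G05727 (-0.78, limma adjusted p = 0.040) and AT3G59930 (-1.36, limma adjusted p = 0.036). For AT3G59930 the value was 0.48 without library 15 (limma adjusted p = 0.71), so its direction there rests on which library is left out.

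**Figure D4:**
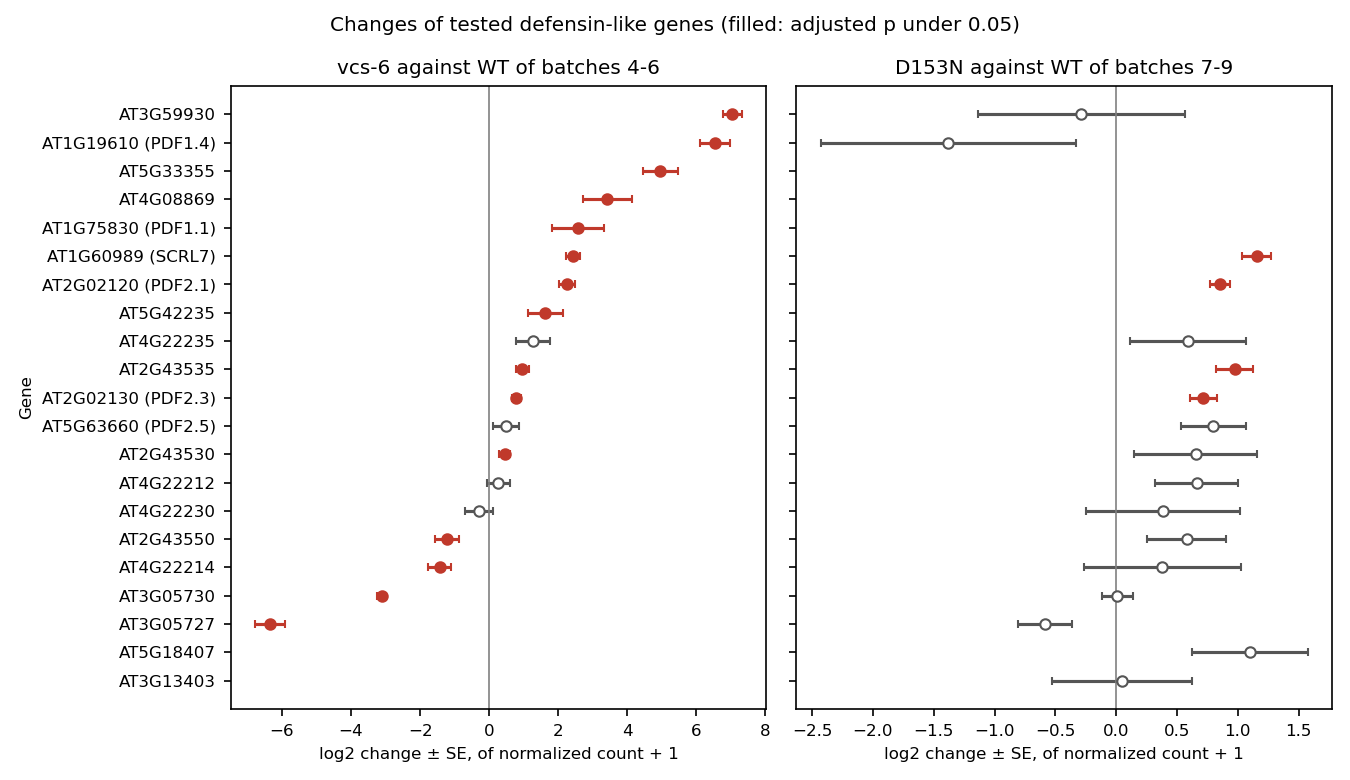
log2 change ± SE of each defensin-like gene tested, in vcs-6 against WT of batches 4 to 6 (left) and in D153N against WT of batches 7 to 9 (right; the horizontal ranges differ). Filled red points have a limma adjusted p under 0.05, 15 on the left and 4 on the right, and a gene with no point was not tested in that comparison.

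The difference between the vcs-6 and D153N changes was tested itself, with all 24 libraries in 1 fit and each line set against its own WT. Of 24 members tested, 9 differed, 6 with a larger change in vcs-6 and 3 with a lower one, where 26.3% of all genes were called, 13.3% higher and 13% lower. AT5G33355 and PDF1.1, which are 2 of the 6, and AT5G42235 passed the filter of that fit through the vcs-6 libraries alone, so the count describes the members and supports nothing further. Without a filter, an alternative added after seeing the data, 7 members were higher and 3 lower. PDF1.4 differed by 7.92 ± 1.1 on the log2 scale (limma adjusted p = 4.7e-05), AT3G59930 by 7.33 ± 0.94 (1.4e-05) and AT5G33355 by 5.59 ± 0.96 (0.00025, and 0.00017 without a filter). AT3G05727 differed by -5.76 ± 0.76 (limma adjusted p = 1.8e-05) and AT3G05730 by -3.12 ± 0.38 (6.9e-06).

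Of the genes that were higher in both lines, PDF2.1 differed by 1.4 ± 0.33 (limma adjusted p = 0.0035) and SCRL7 by 1.28 ± 0.22 (0.00031), so both changes were larger in vcs-6. For PDF2.3 the difference was 0.07 ± 0.18 and for AT2G43535 it was -0.01 ± 0.37. Neither passed, which does not show that the changes were equal. AT2G43550, lower in vcs-6, differed by -1.79 ± 0.44 (limma adjusted p = 0.0049).

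PDF1.1 differed by 3.01 ± 0.90 (limma adjusted p = 0.018). It rests on few reads, 0 in D153N and 2 in its WT, and lost the call with edgeR (adjusted p = 0.14) and without WT library 6 or 9 (0.055 and 0.053).

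In dne1 and in the lines OE1 and OE2, the main limma fit, with all 12 libraries and no batch block, called no member. Other settings, fits with a library left out among them, called up to 2. Against WT of batches 1 to 3, 21 members were tested for each line in a fit of 12 libraries. In dne1, limma called 0 members, with 0.0185% of all genes called, and DESeq2 and edgeR also called 0. An unadjusted p under 0.05 was found for 1 member and for 352 of all 21631 genes tested. The median log2 change was -0.11 over the members and 0.00 over all genes.

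In OE1 limma called 0 members (4 at an unadjusted p under 0.05, 0.139% of all genes called), edgeR 0 and DESeq2 1, AT4G08869. In OE2 limma, edgeR and DESeq2 each called 0 (5 at an unadjusted p under 0.05, 0.171% of all genes called). With OE1 and OE2 together limma called 0 (7 at an unadjusted p under 0.05, 0.365% of all genes called), edgeR 0 and DESeq2 1, again AT4G08869. Between OE1 and OE2 limma, edgeR and DESeq2 each called 0 of the members and 0 had an unadjusted p under 0.05, where limma called 0% of all genes. Over all 21631 genes tested, 1488 had an unadjusted p under 0.05 in OE1, 1378 in OE2 and 1864 with both together. Between OE1 and OE2 the number was 152. Over all genes, DESeq2 called 173 higher and 35 lower in OE1, and 259 higher and 78 lower with both lines together. Median log2 changes of the members were 0.33 in OE1 and 0.16 in OE2, with medians of 0.00 and -0.02 over all genes.

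The member closest to a call was AT4G08869. It had 0.77, 1.21 and 0 in WT of batches 1 to 3, 3.02, 32.4 and 12.8 in OE1 and 15.1, 10.6 and 19.9 in OE2. Every library of both lines was above every WT library. It passed the filter of this fit through libraries of OE1 and OE2 alone, so its tests above and below support nothing further. There were 2 reads in WT, 51 in OE1 (depth-adjusted ratio 27.03, 95% exact interval 7.11 to 229) and 47 in OE2 (22.3, 5.85 to 190), with intervals that cover counting error only. Without OE1 library 2 the ratio for OE1 was 10.3, and without WT library 2 the ratios were 39.3 for OE1 and 32.5 for OE2.

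For both lines together its log2 change was 3.14 ± 0.63 (limma adjusted p = 0.078). The adjusted p was 0.059 without a filter, 0.021 with DESeq2, 0.036 with the batch as a replicate block and 0.027 without OE1 library 1. In D153N the same gene had 7.65, 62.2 and 6.53 against 3.03, 3.86 and 0.74 in WT of batches 7 to 9, and it was below the filter there.

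PDF2.1 had 3971, 3904 and 2372 in WT of batches 1 to 3, 3971, 6247 and 4453 in OE1 and 5599, 6217 and 4869 in OE2. Both lines lay at or above the highest WT library. The log2 change of both lines together, 0.63 ± 0.21, did not pass (limma adjusted p = 0.37). With the batch as a replicate block it did (SE 0.13, adjusted p = 0.032), and so did that of OE2 alone (0.73 ± 0.15, adjusted p = 0.046).

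PDF1.2a (AT5G44420), the classical jasmonate and ethylene marker, was low throughout. It had 0, 30.2 and 0 in WT of batches 1 to 3, 46.2, 77.0 and 4.81 in OE1, and 67.5, 108 and 10.5 in OE2. The groups overlapped, because 1 WT library was above the third library of each line, and the log2 change of both lines together, 3.47 ± 1.18, did not pass (limma adjusted p = 0.37). In vcs-6 PDF1.2a had 1.1, 2.41 and 0, from 4 reads against 7 in WT of batches 4 to 6. In D153N it had 0, 0 and 0.82, from 1 read against 15 in WT of batches 7 to 9. Neither showed a rise in the reads assigned to it. Below the filter in D153N, it was lower there without a filter (log2 change -2.10 ± 0.49, limma adjusted p = 0.037). Its coding sequence was 87.7% identical to that of PDF1.1, and whether reads of such similar genes were lost was not tested.

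The change in D153N was also set against the mean change in OE1 and OE2, in the fit of all 24 libraries. Of 24 members tested, 2 differed, both higher in D153N, against 2.15% of all genes, 1.84% higher and 0.311% lower. PDF2.3 differed by 0.76 ± 0.17 (limma adjusted p = 0.022) and SCRL7 by 0.82 ± 0.21 (0.046). Their own changes in OE1 and OE2 together did not pass. The SCRL7 difference lost its call in 17 of the 24 fits that left out a library, with an adjusted p of up to 0.14, and without a filter (limma adjusted p = 0.0503). The PDF2.3 difference lost it in 6 of 24, with an adjusted p of up to 0.069. In those fits 0 to 3 members were called.

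WT of batches 4 to 6 was compared with WT of batches 7 to 9 as a background. limma called 0 of 15 members (0.00477% of all genes called), and 5 had an unadjusted p under 0.05, as did 2891 of all 20955 genes. edgeR called 0 members and DESeq2 3, where DESeq2 called 191 of all genes higher and 331 lower. The members called by DESeq2 were AT3G59930, PDF1.4 and AT3G05730, which are also among those that moved most in vcs-6. AT3G59930 was lower in batches 4 to 6 by 1.88 ± 0.23 on the log2 scale, counted as -1.88 (limma adjusted p = 0.18), and PDF1.4 by -2.19 ± 0.82 (0.33). AT3G05730 was higher there by 0.74 ± 0.10 (limma adjusted p = 0.18). These differences were smaller than those in vcs-6, and the vcs-6 values of all 3 genes lay outside the range of the 6 WT libraries of 2019.

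Other genes of the same and related pathways were examined for the vcs-6 and D153N comparisons. Of 13 plant defensins with a PDF name, 11 had a row. In vcs-6, 6 were tested and 5 were higher, where 26.7% of all genes were; PDF1.1, 1 of the 5, passed the filter through the mutant libraries alone. Among the 5 was PDF2.2 (AT2G02100), whose description lacks the words and which so is not among the 73, with a change of 1.99 ± 0.19 (limma adjusted p = 0.00013). In D153N, 5 were tested and 2 were higher, PDF2.1 and PDF2.3, where 9.09% of all genes were.

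Over all genes tested in vcs-6, 26.7% were higher and 24.8% lower. Of 7 genes listed for the ERF branch of the jasmonate and ethylene response, regulators among them, 3 were higher in vcs-6 and 2 lower. The basic chitinase CHI-B rose by 2.57 ± 0.19, PR4 by 2.52 ± 0.23 and the thionin THI2.1 by 2.6 ± 0.58, while the regulator ORA59 changed by -1.60 ± 0.37 and THI2.2 by -2.45 ± 0.39. Of 7 genes of the MYC branch of the jasmonate response, 2 were higher (CORI3 and JAZ10) and 1 was lower (VSP2, -2.6 ± 0.27). All 3 salicylic acid markers were higher: PR1 by 7.00 ± 0.54, PR2 by 7.30 ± 0.60 and PR5 by 4.05 ± 0.55. In the fit that compared the WT groups with each other, only 2 of these 3 markers and 6 of the 7 ERF branch genes passed the filter. The remaining gene of each list passed in the vcs-6 fit with the help of mutant libraries. The counts of both lists therefore describe the listed genes and support nothing further. In D153N, none of 6 tested genes of the ERF branch and none of 7 of the MYC branch was called, and of 2 tested salicylic acid markers PR5 was higher (2.44 ± 0.35). Over all genes tested in D153N, 9.09% were higher and 6.84% lower.

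Some markers of other tissues were called in vcs-6, a comparison in which 51.5% of all genes were called, and their part in the changes of the defensin-like genes was not tested. Of 8 seed storage genes, 4 were tested and 3 were higher. Only 2 of the 8 passed the filter in the fit that compared the WT groups with each other. Some of the 4 thus passed in the vcs-6 fit with the help of mutant libraries, and their count supports nothing further. The summed normalized counts of the 8 genes were 546 to 1044 in WT of batches 4 to 6 and 1191 to 7245 in vcs-6. Of 5 leaf photosynthesis genes 4 were lower, with sums of 1312456 to 1572220 in WT and 634206 to 840937 in vcs-6. Of 7 floral organ genes 2 were tested and both were higher, with sums of 93.8 to 113 and 184 to 227. Of 7 root genes 2 were higher and 1 was lower, a share below that of all genes. Of 7 female gametophyte genes, 3 had a row and none was tested; their sums were 1.18 to 2.16 in WT and 6.81 to 18.5 in vcs-6, and EC1.1 was at 0 in all of these libraries. Of 6 pollen genes, 5 had a row, with sums of 14.7 to 38.8 and 30.6 to 71.0, and the 1 tested was not called. None of the 3 genes of the embryo-surrounding region had a row, and they were not analysed here.

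In D153N, 2 of 5 tested photosynthesis genes and 2 of 2 tested seed storage genes were lower. Of 7 root genes 1 was lower, the nitrate transporter NRT2.1. Over all genes tested, 6.84% were lower. The seed storage sums were 542 to 625 in WT of batches 7 to 9 and 16.3 to 198 in D153N, the opposite direction to vcs-6. The female gametophyte sums were 0 to 4.82 in WT and 9.57 to 16.3 in D153N. The floral organ sums were 177 to 224 in WT and 241 to 356 in D153N, and none of the 7 tested genes was called. The pollen sums were 17.2 to 39.5 and 42.1 to 43.3, and the 1 tested gene was not called. The part of these marker genes in the D153N values was not tested.

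The authors' deposited table gives its own log2 fold changes and adjusted p-values. In vcs-6, 12 members were higher and 5 lower at an adjusted p under 0.05 in the authors' deposited table, of 40 with a value. Of all rows with a value, 51.8% were called there, 26.8% higher and 25.1% lower. Of the 15 members called here, 14 were among those it calls. AT2G43530 was not (adjusted p = 0.38 in the authors' deposited table). The authors' deposited table also gives smaller changes for the largest rises, 5.03 for AT3G59930, 4.16 for PDF1.4 and 4.10 for AT5G33355. For D153N the authors' deposited table calls 5 members higher, the 4 called here and AT4G08869 (1.83), where 20.9% of all rows are called, 11.3% higher and 9.59% lower. For the DNE1 overexpressors against WT the authors' deposited table calls 4 members higher, AT1G60989 (0.31), PDF2.1 (0.54), AT4G08869 (0.63) and AT2G43550 (0.42), where 5.74% of all rows are called, 4.01% higher and 1.73% lower. For dne1 the authors' deposited table calls no member and 0.0736% of all rows.

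The 250 bases upstream of the annotated starts of AT3G59930 (chr3:22140321-22140570, minus strand) and AT5G33355 (chr5:12599000-12599249, plus strand), read from TAIR10.1, are shown because the counts assigned to both genes rose in vcs-6. Those counts lay at very different levels, but the split of reads between the pair is uncertain. Capitals mark a GCC box, GCCGCC on either strand.
AT3G59930: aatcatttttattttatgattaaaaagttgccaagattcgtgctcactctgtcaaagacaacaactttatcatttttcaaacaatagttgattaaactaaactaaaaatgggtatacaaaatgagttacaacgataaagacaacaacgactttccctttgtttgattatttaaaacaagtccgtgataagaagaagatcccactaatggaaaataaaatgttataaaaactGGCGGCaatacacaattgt
AT5G33355: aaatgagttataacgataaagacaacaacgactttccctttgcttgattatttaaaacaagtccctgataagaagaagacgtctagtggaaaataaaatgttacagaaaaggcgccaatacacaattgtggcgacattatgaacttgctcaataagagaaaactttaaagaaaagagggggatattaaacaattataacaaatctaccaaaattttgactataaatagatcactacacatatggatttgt

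Over the 132 aligned columns that the windows share they were 90.2% identical. AT3G59930 held 1 GCC box and AT5G33355 none. Of 27443 upstream windows of that length, 1.87% held this motif, and among the 73 members it was found in AT3G59930, PDF1.2a and PDF1.5 (AT1G55010). The W box TTGACC was found in 15 members and in 12.2% of all windows, the element TGACG in 6 members and 18.6% of windows, and the G box CACGTG in 1 member and 6.49% of windows. Each was searched on both strands, matches of different motifs may overlap, and a match describes letters only.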

How the data were processed

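Per the labels' protocols, whole-seedling RNA was extracted with TRIZOL, and libraries came from the SENSE mRNA-Seq kit of Lexogen. Reads were handled with bcl2fastq 2.17.1.14, HISAT2 2.1.0, HTSeq and DESeq2 on build TAIR10, per the submitters' processing notes. The deposited values are a signal, normalized counts from DESeq2 1.24.0 per the file headers, that is reads divided by 1 size factor per library, with the 2018 and 2019 sets scaled separately. The deposited table also gives log2 fold changes and adjusted p-values made by the authors. The annotation release and strand setting are not given in the sources used here.

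From these values whole reads were recovered (100% of values within 0.001 of a whole multiple), which gave the depths and the count tests used as alternatives. The main test was limma 3.58.1 (trend, R 4.3.3) on log2(normalized count + 1), for genes that reached 10 in 3 or more libraries of the fit. The fits held 12 libraries for the 2018 groups, 6 for vcs-6, D153N or the WT groups of 2019, and 24 for differences between changes. Calls used an adjusted p under 0.05. Alternatives were pseudocounts of 0.5 and 5, no filter or a filter of 50, edgeR 4.0.16 with TMM, DESeq2 1.42.0, TMM-scaled log2 CPM, the batch as a block, fits of 6 libraries in place of 12, and each library left out. edgeR with RLE factors, and with TMM and the batch block, and differences of changes without a filter were added after seeing the data.

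The labels give the batch that WT and the other lines share. Deviations from group means correlated at 0.14 to 0.68 between libraries of the same batch in batches 1 to 3 (18 pairs) and at -0.58 to 0.22 between batches. In batches 7 to 9 they correlated at 0.07 to 0.23 (3 pairs) and at -0.33 to 0.17. The main fits have no block.

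The members and gene lists were chosen with earlier results of these data known. Members named in the text were those called against WT (the 6 largest rises and 6 largest falls where more than 12 were called), the 10 highest per kb in WT, and those whose highest group mean was at least 20 and at least 4 times that of any other genotype. Sequences came from the RefSeq annotation of TAIR10.1, matched by locus with Biopython 1.88; the files hold no coordinates. Whether the 3 libraries of a group came from separate cultures is known only from the words biological triplicates.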

Additional observations from a re-analysis of the deposited data

Results flagged for a closer look

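For 9 defensin-like genes the change in vcs-6 differed from that in D153N when the difference itself was tested (limma, all 24 libraries). On the log2 scale, vcs-6 minus D153N, it was 7.92 for AT1G19610 (PDF1.4), 7.33 for AT3G59930, 5.59 for AT5G33355, 3.01 for AT1G75830 (PDF1.1), 1.4 for AT2G02120 (PDF2.1) and 1.28 for AT1G60989 (SCRL7). It was -5.76 for AT3G05727, -3.12 for AT3G05730 and -1.79 for AT2G43550. AT5G33355 and AT1G75830 passed the filter through the vcs-6 libraries alone. For 2 genes the change in D153N differed from the mean change in OE1 and OE2, by 0.82 for AT1G60989 and 0.76 for AT2G02130 (PDF2.3). The lines compared were grown in different batches with their own WT, so line and batch set cannot be told apart.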

How the results depend on the processing

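No called result changed direction under any alternative run. Of the values not called, AT3G59930 in D153N (-0.29) was 0.56 with edgeR and with DESeq2, 0.58 with edgeR and RLE factors, and -1.36 to 0.48 with a library left out. AT3G05730 in D153N (0.01) was -0.00513 with edgeR, -0.0194 with TMM-scaled log2 CPM, -0.00865 with edgeR, TMM and the block, and -0.10 to 0.0922 with a library left out. For vcs-6 minus D153N, PDF2.3 (AT2G02130, 0.07) was -0.0313 to 0.16 and AT2G43535 (-0.01) -0.12 to 0.20 with a library left out. In vcs-6 AT3G59930, AT5G33355, PDF1.4, SCRL7, PDF2.1, PDF2.3, AT2G43535, AT4G08869, AT3G05727, AT3G05730 and AT4G22214 were called in every alternative that tested them. Of these, AT5G33355 and AT4G08869 passed the filter through the vcs-6 libraries alone, so their calls under it support nothing further. The members measured numbered 24, and 56 or 13 at levels of 1 or 50. In vcs-6, 7 members were higher with the filter of 50, which tests fewer genes, in place of 11, and 14 higher and 5 lower without a filter, which adds AT5G42223, AT1G34047, AT4G11393, AT5G40155 and, lower, AT1G55010. For D153N minus the overexpressors, 1 member was called, higher, without a filter in place of 2. In D153N, 1 member was lower without a filter (PDF1.2a), with the batch as a replicate block (AT3G05727) and with edgeR, TMM and that block, in place of 0. With DESeq2, 1 member was called, higher, in OE1 and 1 in both overexpressors together, and 3 between the WT groups of 2019 (1 higher, 2 lower). With the batch as a replicate block, 1 was called in OE2 and 2 in both overexpressors together, all higher, and 1 with edgeR, TMM and the block. The block changed no other call. Where no cause is given above, the cause was not tested.

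Leaving out each library in turn gave 0 to 1 calls for the overexpressors together, higher in 0 to 1. It gave 11 to 14 in vcs-6 (8 to 11 higher, 3 to 4 lower), 3 to 7 in D153N (3 to 5 higher, 0 to 2 lower), 8 to 10 for vcs-6 minus D153N and 0 to 3 for D153N minus the overexpressors (0 to 2 higher, 0 to 1 lower).

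Over all genes, the overexpressors together had 72 genes higher and 7 lower, against 432 and 102 with the block and 259 and 78 with DESeq2. OE1 had 24 and 6, against 222 and 46 with the block, and OE2 had 32 and 5, against 212 and 41. D153N had 1920 and 1445, against 1365 and 760 with the block. The WT groups of 2019 had 0 and 1, against 191 and 331 with DESeq2.

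No paired analysis was possible for vcs-6 because its columns carry no number, nor between the WT groups of 2019 because they share no batch. Depth limits the 49 members below the filter, of which 29 had at most 10 reads.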
